A study of Mus musculus with 8 samples.

Results

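Chil3 and Wfdc17 encode secreted proteins of myeloid cells, and 2 of the 32285 listed genes are described here across the cells of mouse periosteum. Chil3, also called Ym1, is a chitinase-like protein that binds sugars but lacks the catalytic activity of a chitinase. It is best known as a marker of alternatively activated macrophages and is also made by developing neutrophils. Wfdc17, also called Amwap, is a small protein with a whey acidic protein (WAP) domain, a fold shared with protease inhibitors such as Slpi, and was described in activated macrophages. Both genes were chosen on their UMI levels in these same libraries, so every level and difference below is a description with no test.

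The cells came from femoral and tibial periosteum of C57BL/6J male mice, 16 weeks old, fed a normal diet (ND) or a high-fat diet (HFD). The labels list 4 samples per diet, but each diet has 1 pooled matrix with no map from cells to mice. Each diet was therefore 1 library, a difference between diets had no replicate check, and all intervals are 95% intervals for counting error only (exact Poisson for levels, Clopper-Pearson for shares of cells). The ND library held 6314 barcodes and 48558889 UMIs (unique molecular identifiers, 1 per captured RNA molecule), and the HFD library 6636 barcodes and 49940976 UMIs. Cells with more than 500 and fewer than 8000 genes and under 20% mitochondrial UMIs were kept, which left 6029 ND cells (median 4610 UMIs) and 6224 HFD cells (median 4823.5 UMIs). The libraries shared 14 of these barcodes. Although the label reads periosteum, 2402 ND and 2430 HFD cells were neutrophil-like and 1349 and 1294 were B cell-like, against 409 and 669 mesenchymal-like cells. Most barcodes were therefore of blood cell classes rather than of mesenchymal ones. Cells were grouped into 28 clusters made without Chil3, Wfdc17 or Chil4, and clusters were named from marker genes. Clusters are identified below by number and leading genes, and 325 ND and 296 HFD cells stayed unnamed.

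The files' build is mm10. Chil3 (ENSMUSG00000040809) lies on the minus strand of chromosome 3 from 106147554 to 106167564, with 11 exons in its full-length coding transcript. Wfdc17 (ENSMUSG00000069792) lies on the plus strand of chromosome 11 from 83703991 to 83706268, with 3 exons. These gene positions are GENCODE's. The bases just before each RefSeq start are shown because Chil3 has a near copy, Chil4 (ENSMUSG00000063779, chromosome 3 from 106201490 to 106219507, minus strand), that was barely detected in the same cells. The RefSeq start is the GENCODE start for Chil3, but lies 65 bases downstream of it for Wfdc17 and 28 bases downstream for Chil4, so these windows reach that far into the GENCODE gene. Each run holds 250 bases of GRCm38.p6, written 5′ to 3′ on the gene's strand. Capitals mark matches on either strand to TTGCNNAA, a core recognised by C/EBP factors. They also mark GAGGAA, a core recognised by PU.1, on either strand. The letters of a TATA box were added after the sequences had been seen, spelled TATAAA.
Chil3, chr3:106167565-106167814, minus strand: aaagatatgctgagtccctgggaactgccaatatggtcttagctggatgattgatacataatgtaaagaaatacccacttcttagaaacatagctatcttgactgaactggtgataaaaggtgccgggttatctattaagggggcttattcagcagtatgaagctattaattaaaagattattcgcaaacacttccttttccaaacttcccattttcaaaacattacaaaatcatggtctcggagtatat
Wfdc17, chr11:83703806-83704055, plus strand: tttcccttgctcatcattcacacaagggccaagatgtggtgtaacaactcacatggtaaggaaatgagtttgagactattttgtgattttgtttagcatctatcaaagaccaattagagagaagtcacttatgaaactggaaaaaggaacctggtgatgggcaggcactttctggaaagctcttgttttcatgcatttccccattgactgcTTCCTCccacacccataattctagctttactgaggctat
Chil4, chr3:106219480-106219729, minus strand: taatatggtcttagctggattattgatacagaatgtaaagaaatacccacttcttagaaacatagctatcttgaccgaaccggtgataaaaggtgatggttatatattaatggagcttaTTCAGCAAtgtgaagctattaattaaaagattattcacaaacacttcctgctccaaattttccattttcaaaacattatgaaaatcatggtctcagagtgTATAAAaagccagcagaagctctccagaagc
Of 32851 promoter windows of this length, 9.56% held TTGCNNAA, 23.3% held GAGGAA and 12.4% held TATAAA on either strand. The Wfdc17 window held GAGGAA on the opposite strand, starting 39 bases before the RefSeq start and inside the GENCODE gene. The Chil4 window held TTGCNNAA on the opposite strand and TATAAA 31 bases before its RefSeq start, letters that span the GENCODE start, and the Chil3 window held none of these letters. A match of letters is not a site, and the annotated starts of Chil3 and Chil4 are not at the same base of the shared sequence. Over 221 aligned bases the Chil3 and Chil4 windows were 90.9% identical, and their transcripts were 94.4% identical over 1538 aligned bases and 89.97% over the last 299, the end that this 3′ assay reads. Chil4 had 8 UMIs in the kept ND cells and 2 in the HFD cells, where Chil3 had 49795 and 47746. Reads that fit both genes equally cannot be told apart, and the sources used here do not give how they were assigned.

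Chil3 RNA was mostly neutrophil RNA. Neutrophil-like cells held 80.7% of all Chil3 UMIs in the ND library and 86.7% in the HFD library. Granulocyte-monocyte progenitor-like cells held a further 10.5% and 5.75%, and monocyte-like cells 6.83% and 6.11%. Wfdc17 was spread differently. Monocyte-like cells held 41.9% and 39.9% of its UMIs, neutrophil-like cells 25.8% and 34.9%, and macrophage-like cells 22.5% and 12.99%, although only 90 and 91 cells were macrophage-like.

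Levels are given as UMIs per 1000000 UMIs of the group (UPM). By class, Chil3 stood at 2518 UPM (interval 2494 to 2543) in ND and 2426 (2402 to 2449) in HFD neutrophil-like cells. Progenitor-like cells had 728 (708 to 748) and 530 (511 to 551), and monocyte-like cells 708 (684 to 732) and 649 (626 to 673). In the ND library the progenitor-like and monocyte-like intervals overlapped, so their order was not resolved. In the HFD library monocyte-like cells were higher when classed by cluster. With a gate on marker UMIs in place of clusters, progenitor-like cells stood at 1327 and 1332 UPM and monocyte-like cells at 743 and 601. Their order thus depended on how cells were classed. Pericyte-like cells had 272 and 401, dendritic cell-like cells 156 and 6.75 and mesenchymal-like cells 108 and 26.04, and in each of these classes 1 to 3 cells per library held at least 50% of the UMIs. Low levels of 13.2 and 17.7 were seen in B cell-like cells, 11.8 and 7.92 in T cell-like cells and 8.13 and 12.6 in NK cell-like cells. Values were lower still in B cell precursor-like cells (6.19 and 6.75) and erythroid-like cells (7.14 and 2.26). The B, T and NK cell-like intervals overlapped in the ND library, and in the HFD library B cell-like cells lay just above T cell-like cells.

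Wfdc17 was highest in macrophage-like cells, at 2292 UPM (2208 to 2378) in the ND library and 1082 (1019 to 1149) in the HFD library, as a class. Monocyte-like cells followed with 1088 (1059 to 1118) and 742 (717 to 767), and neutrophil-like cells with 202 (195 to 209) and 171 (165 to 178). The order of these 3 classes was the same in both libraries and no neighbouring intervals overlapped. By cluster the HFD order of summed UMIs turned, since macrophage-like cluster 19 stood at 0.69 times (0.62 to 0.77) the level of monocyte-like cluster 22 there and at 1.22 times (1.15 to 1.29) in ND. These intervals leave out the spread between cells. As a mean over cells, cluster 19 stood at 1829 UPM in ND and 1069 in HFD. B cell-like cells had 71.3 and 44.1 UPM, T cell-like cells 17.9 and 17.8, and basophil/mast cell-like cells 1.80 and 3.62. In HFD pericyte-like cells there was no Wfdc17 UMI in 59 cells, which allows a share of up to 5.08% of cells with a UMI, taking 3 cells as the limit that a count of 0 allows.

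**Figure D1:**
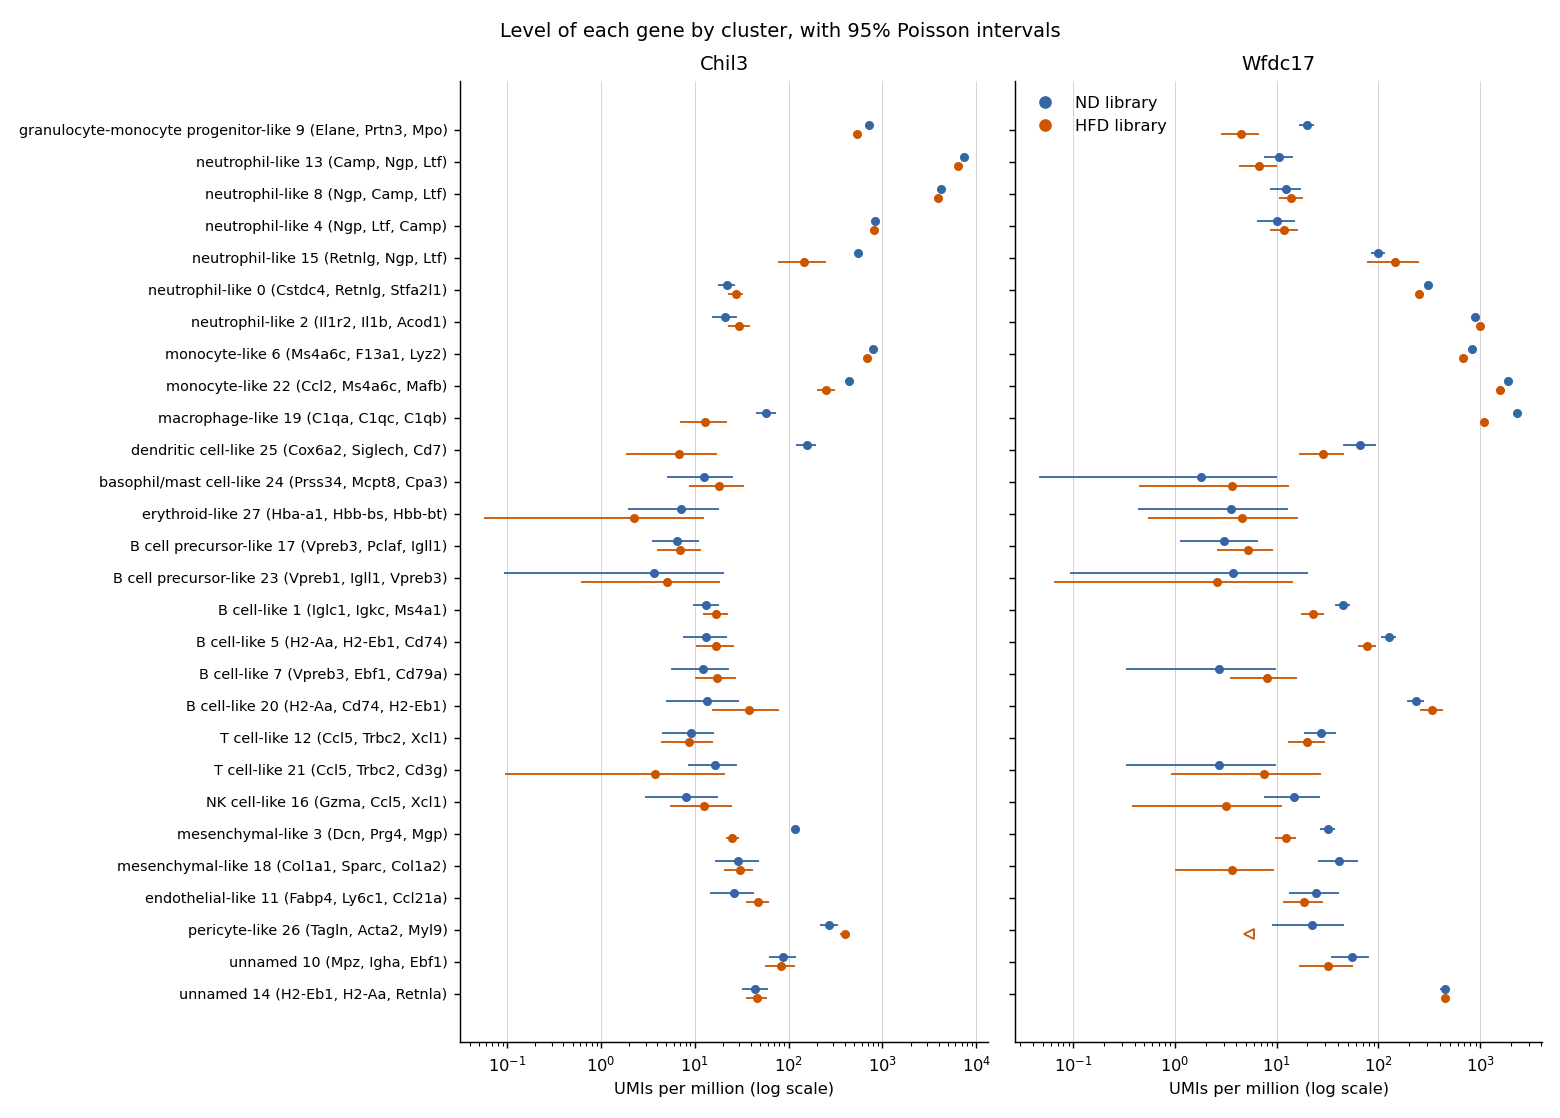
Chil3 (left) and Wfdc17 (right) in UPM on a log axis for each of the 28 clusters, named by class, number and leading genes. Points are the ND (blue) and HFD (orange) libraries with 95% Poisson intervals, and the open arrow marks the upper limit of a cluster with no UMI. Chil3 peaks in neutrophil-like cluster 13 at 7322 and 6453 UPM, whereas Wfdc17 peaks in macrophage-like and monocyte-like clusters.

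Within the neutrophil lineage the genes were high at different stages. Neutrophils mature through a stage that makes primary granules (Mpo, Elane), a stage that makes specific granules (Camp, Ltf, Ngp) and a late stage with receptors such as Cxcr2. The clusters were ordered by these genes, and from cluster 13 on the order used follows falling Camp. Progenitor-like cluster 9 held primary granule RNAs (Elane 8462 UPM in ND and 9766 in HFD). Cluster 13 had little of them (Elane 94.96 and 72.5) and high Camp (64029 and 64544), with Cebpe, a transcription factor of specific granule genes, at 392 and 355. Camp stayed high in cluster 8 (57609 and 59696), fell off in cluster 4 (23763 and 26146), and was at 563 and 988 in cluster 0 and 191 and 297 in cluster 2. Cxcr2, the receptor of late neutrophils, was at 15.7 and 11.5 UPM in cluster 13 and 483 and 475 in cluster 2. It was at 353 and 337 in cluster 0 and highest in cluster 15, at 496 and 637. The listed late neutrophil genes summed to 53335 and 54875 UPM in cluster 0 but 19893 and 19486 in cluster 2. These late genes thus did not set the order of clusters 15, 0 and 2.

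Chil3 stood at 728 UPM in ND and 530 in HFD cluster 9, and at 7322 and 6453 in cluster 13. It then stood at 4227 and 3903 in cluster 8, at 835 and 816 in cluster 4, and at 21.96 and 27.3 in cluster 0. In cluster 2 it stood at 21.1 and 29.9, within the counting error of cluster 0 in both libraries. Cluster 13 was 333-fold above cluster 0 in the ND library (interval 269 to 418) and 236-fold in the HFD library (196 to 287). A cell of cluster 13 held a median of 208.5 Chil3 UMIs in ND and 162 in HFD, and at most 527 and 437. All 189 ND and all 290 HFD cells of cluster 8 had at least 1 Chil3 UMI, as did 96.9% and 99.3% of cluster 13, 75.7% and 75.4% of cluster 4, 6.92% and 9.44% of cluster 0 and 5.25% and 7.56% of cluster 2.

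Those last shares were close to the background. B cell-like cells, which should lack Chil3 (median 3787 and 3666.5 UMIs, against 2715 and 2791 in cluster 2), had a UMI in 5.04% (3.94 to 6.35) of ND and 6.41% (5.14 to 7.89) of HFD cells. Per cell, cluster 2 held 0.0596 (0.0429 to 0.0805) and 0.0852 (0.0638 to 0.111) Chil3 UMIs and B cell-like cells 0.0526 (0.0411 to 0.0664) and 0.0688 (0.0552 to 0.0846), so the intervals of cluster 2 overlapped those of the background. Per UMI they overlapped in the ND library, at 21.1 UPM (15.2 to 28.5) against 13.2 (10.3 to 16.7), but not in the HFD library, at 29.9 (22.4 to 39.1) against 17.7 (14.2 to 21.7). Cluster 0 held 0.0938 (0.0748 to 0.116) and 0.118 (0.0968 to 0.141), above B cell-like cells but overlapping the 0.0819 (0.0519 to 0.123) of ND T cell-like cells. Cells of at least 1000 UMIs were also thinned to 1000, and shallower cells were left out. Of the thinned cells, 92.8% and 91.7% of cluster 13 kept a Chil3 UMI, against 2.12% and 2.20% of cluster 0 and 1.26% and 2.17% of B cell-like cells.

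Wfdc17 was low in the early clusters and high in the late ones. It stood at 10.6 UPM in ND and 6.64 in HFD cluster 13, at 12.3 and 13.9 in cluster 8 and at 10.0 and 11.9 in cluster 4, and clusters 8 and 4 were not resolved (1.23-fold, 0.71 to 2.19, in ND and 1.18-fold, 0.78 to 1.80, in HFD). Late cluster 0 had 309 and 248, and cluster 2, led by Il1r2, Il1b and Acod1, had 896 and 997. In UPM, cluster 2 was 84.7-fold above cluster 13 in the ND library (61.2 to 121) and 150-fold in the HFD library (99.7 to 237). Per cell the folds were only 8.75 and 18.2, since cluster 13 cells were deeper (median 26715 UMIs against 2747 over both libraries). Cluster 13 held 37 ND and 23 HFD Wfdc17 UMIs. In cluster 2, 41.8% of ND and 47.7% of HFD cells had a Wfdc17 UMI, with up to 52 and 50 in a cell, against 7.03% and 4.08% of the much deeper cells of cluster 13. Between them, cluster 15 (led by Retnlg) had 554 and 145 UPM of Chil3 and 99.8 and 145 of Wfdc17, but it held 229 ND and only 20 HFD cells. Few cells of clusters 13 and 2 could hold both RNAs, since 1 of them was rare in each. In cluster 2 a Wfdc17 UMI was seen in 45.9% of ND and 57.4% of HFD cells with Chil3 and in 41.6% and 46.96% of the others.

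**Figure D2:**
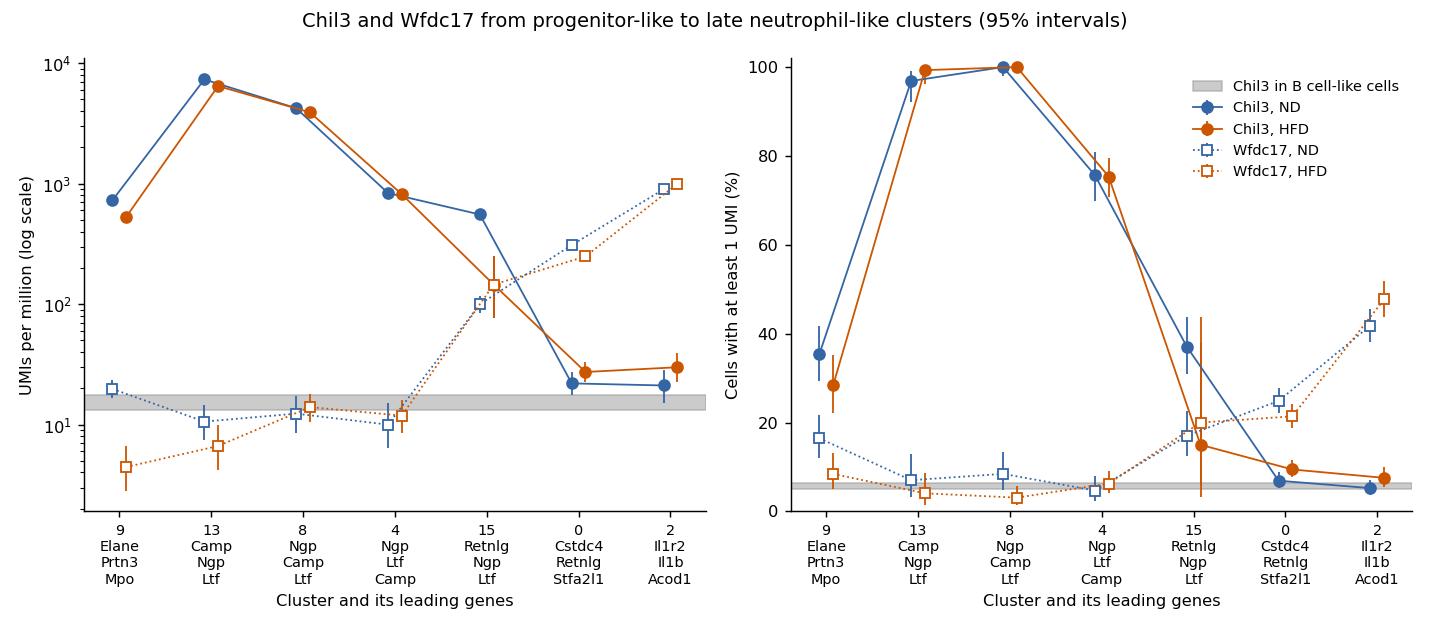
Chil3 (filled circles) and Wfdc17 (open squares) along the clusters from progenitor-like cluster 9 to late neutrophil-like cluster 2, as UPM on a log axis (left) and as the percent of cells with at least 1 UMI (right). Bars are 95% counting intervals, and the grey band spans the ND and HFD values of Chil3 in B cell-like cells. Chil3 comes near the band in clusters 0 and 2, where Wfdc17 reaches 309 and 896 UPM in the ND library.

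In the progenitor-like cluster Chil3 was uneven. No Chil3 UMI was seen in 64.6% of ND and 71.6% of HFD cells, although these cells were deep (median 24860 and 20856 UMIs). Cells with 10 or more were 18.1% and 14.4% of the cluster and held 98.0% and 97.4% of its Chil3 UMIs. They had Camp at 47755 and 56175 UPM, where cells without Chil3 had 307 and 86.7. Fcnb, a ficolin of granulocyte precursors, was at 1980 and 2255 against 51.4 and 63.2. Irf8, a transcription factor of monocyte and dendritic cell fate, was at 1.31 and 1.06 UPM against 131 and 86.7, and the stem and progenitor antigen Cd34 was at 0 and 1.06 against 115 and 96.6. Mpo was present in both, at 2141 and 2131 against 2734 and 3357. Chil3 thus accompanied granulocyte genes in this cluster, as a description of cells split by the gene itself. Wfdc17 was low there, at 19.7 and 4.44 UPM, and 2 of 243 ND cells held at least 50% of its 142 UMIs.

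Monocyte-like cells carried both RNAs at once. In cluster 6, led by Ms4a6c, F13a1 and Lyz2, Chil3 stood at 797 UPM in ND and 678 in HFD and Wfdc17 at 827 and 681. A Chil3 UMI was seen in 69.7% and 71.5% of cells, a Wfdc17 UMI in 94.8% and 90.7%, and both in 66.9% and 65.6%. Chil3 was uneven, since 25 of 251 ND and 34 of 291 HFD cells held at least 50% of its UMIs there. Cells with 10 or more Chil3 UMIs had Ly6c2, the antigen of classical monocytes, at 1538 and 1792 UPM against 1105 and 1250 in cells with none, and Irf8 at 143 and 137 against 261 and 255. Their Wfdc17 level was 874 and 654 against 686 and 540, but cells with 1 to 9 Chil3 UMIs had the highest, 909 and 833. Cluster 22, led by the chemokine gene Ccl2, had less Chil3 (438 and 251) and more Wfdc17 (1881 and 1563). Its Wfdc17 level was 2.27-fold that of cluster 6 in ND (2.15 to 2.40) and 2.30-fold in HFD (2.08 to 2.53), while its Chil3 level was lower by 1.82-fold (1.66 to 2.00) and 2.70-fold (2.15 to 3.42). Cluster 22 held 112 ND and 35 HFD cells.

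Macrophage-like cells (cluster 19, led by C1qa, C1qc and C1qb) had Wfdc17 and almost no Chil3. A Wfdc17 UMI was seen in 93.3% (86.1 to 97.5) of ND and 81.3% (71.8 to 88.7) of HFD cells, with a median of 9 and 4 UMIs and at most 397 and 119. Its UMIs were concentrated, with 7 of 90 ND and 10 of 91 HFD cells holding at least 50% of them. A Chil3 UMI was seen in 10 ND and 13 HFD cells. The 13 HFD cells had 1 UMI each, and in the ND library 3 cells held 78.9% of the 71 UMIs. Summed over those 3 cells, Camp stood at 8849 and S100a8 at 52185 UPM, where ND macrophage-like cells without Chil3 had 49.7 and 413. Ly6c2 was at 628 UPM in the 3 cells against 7.10 in those without Chil3, and Irf8 at 134 against 60.9. Ly6c2 was seen in neutrophil-like cluster 4 as well as in monocyte-like cells. The remaining 80 ND and 78 HFD macrophage-like cells held no Chil3 UMI at a median depth of 11174.5 and 10553 UMIs. Unnamed cluster 14, led by H2-Eb1, H2-Aa and Retnla, had 7 detected monocyte markers but dendritic cell markers among its top genes. Of its cells, 29.4% were among those with the highest doublet scores. Wfdc17 in this cluster was at 448 and 453 UPM and Chil3 at 44.3 and 45.8.

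In droplet assays free RNA reaches every droplet, and RNAs from a common source then keep their ratio to each other. A tracer of 7 neutrophil RNAs (S100a8, S100a9, Retnlg, Camp, Ngp, Ltf and Lcn2) was counted beside Chil3 in every class. B cell-like cells held 8.74 tracer UMIs per cell in ND and 9.90 in HFD, and 6.02 and 6.95 Chil3 UMIs per 1000 tracer UMIs. The neutrophil-like class as a whole held 6.57 and 5.91 per 1000, so Chil3 in B cell-like cells stood to the tracer nearly as in the neutrophil-like cells. The other lymphoid classes held less. T cell-like cells had 1.99 and 2.70 per 1000, from 23 and 12 Chil3 UMIs. NK cell-like cells had 3.42 and 3.85, from 6 and 8, and B cell precursor-like cells 1.64 and 4.50, from 14 and 17. These counts are small and no intervals were taken for the ratios. In addition, 4.98% and 3.90% of T cell-like cells had over 1% tracer UMIs, which raises the tracer mean. As counted, the ratio was thus not the same in all classes that should lack Chil3. Monocyte-like cells held 207 and 252 per 1000, far above the B cell-like ratio, and their Chil3 per cell stayed at 8.51 and 8.49 in cells with at most 1% tracer UMIs (9.37 and 8.94 in all). Macrophage-like cells held 4.27 and 8.47 per 1000.

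In some other classes most Chil3 UMIs sat in a few cells, unlike in B cell-like cells, where no cell held more than 2. In HFD pericyte-like cells 222 of 226 Chil3 UMIs were in 1 cell, and in ND dendritic cell-like cells 64 of 68 were in 1 cell. In mesenchymal-like cells 3 of 409 ND cells and 2 of 669 HFD cells held at least 50% of 517 and 182 UMIs. Without cells of over 1% tracer UMIs, mesenchymal-like cells fell from 1.26 to 0.271 Chil3 UMIs per cell in ND and from 0.272 to 0.0827 in HFD. Wfdc17 in T cell-like cells fell likewise, from 17.9 to 4.43 UPM in ND and from 17.8 to 2.05 in HFD. Whether such cells were doublets was not tested.

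**Figure D3:**
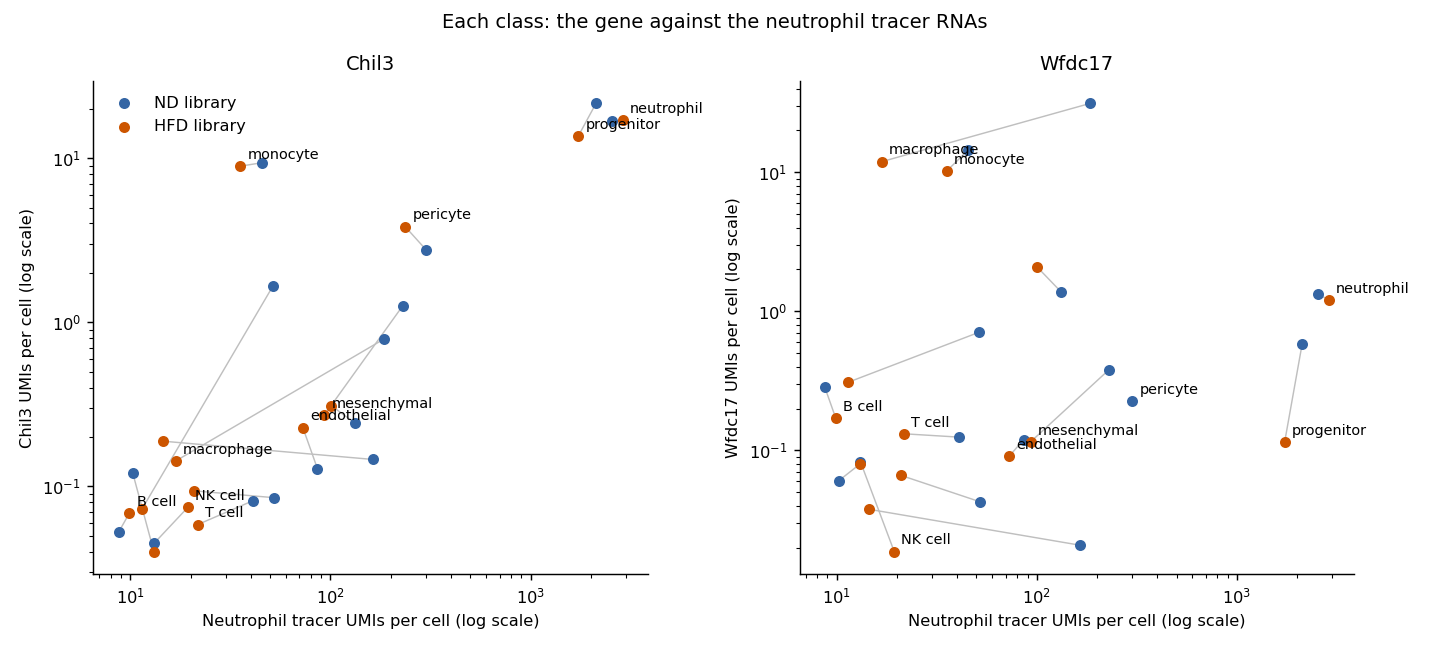
UMIs per cell of Chil3 (left) and Wfdc17 (right) against UMIs per cell of the 7 neutrophil tracer RNAs, both on log axes, with 1 point per class and library and a grey line joining the libraries of a class. Monocyte-like cells lie far above the other classes of equal tracer for Chil3, with 9.37 and 8.94 UMIs per cell, and macrophage-like and monocyte-like cells do so for Wfdc17. Classes without a label are dendritic, basophil/mast, erythroid, B cell precursor-like and unnamed cells, and a class with no UMI is not drawn.

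Wfdc17 differed between B cell-like clusters beyond counting error, whereas the Chil3 intervals of these clusters overlapped. Cluster 7, led by Vpreb3 and Ebf1, had a Wfdc17 UMI in 0.498% (0.0126 to 2.74) of ND and 2.51% (1.01 to 5.10) of HFD cells. Cluster 1 had one in 6.06% and 4.71% and cluster 5 in 15.4% and 15.5%. Cluster 20, with Fcer2a among its leading genes and Ighd, genes of mature B cells, had one in 25% (17.0 to 34.4) and 27.7% (15.6 to 42.6), at 234 and 338 UPM. Median depths were alike, at 3411.5 UMIs in cluster 7 and 3978 in cluster 20 over both libraries, and Chil3 was seen in 3.98% and 6.09% of cluster 7 and 5.77% and 12.8% of cluster 20. The C1q genes of macrophages were at 0.0385 and 0 UMIs per cell in cluster 20, and 2 of its 26 ND and 0 of its 13 HFD cells with Wfdc17 had a C1q UMI. Apoe, which macrophages also make in quantity, did differ, at 0.0398 and 0.0323 UMIs per cell in cluster 7, 0.0356 and 0.0410 in cluster 1, 0.867 and 0.584 in cluster 5 and 0.673 and 0.426 in cluster 20, so it was higher in the same pair of clusters as Wfdc17. Its part in the Wfdc17 difference was not tested. Cluster 20 held 2.06 and 3.10 Wfdc17 UMIs per Lyz2 UMI, against 0.0617 and 0.0436 in monocyte-like cells and 0.186 and 0.109 in macrophage-like cells. The number of cells was small, and 4 ND and 2 HFD cells held at least 50% of the 103 and 62 UMIs of cluster 20.

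Across the 28 clusters, with both libraries summed, Chil3 and Wfdc17 were hardly related (Pearson r = 0.07 of log2 UPM with 10 added). Among 11881 genes the 8 most like Chil3 were Cebpe (r = 0.90), Cd177 (0.87), Gys1 (0.85), Rhou (0.84), Gca (0.82), Orm1 (0.82), Abca13 (0.82) and Fcnb (0.82). The 8 most like Wfdc17 were Lrrc25 (r = 0.86), the receptor gene Tlr8 (0.85), Csf1r (0.85), Adgre1 (0.85), Cd68 (0.84), Gm49041 (0.83), Cd300c2 (0.83) and Alcam (0.83). Csf1r, Adgre1 and Cd68 were among the markers that named the monocyte-like or macrophage-like clusters. These points share the 2 libraries and their depth, and the correlations are descriptions.

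Chil1, the most abundant relative of Chil3, was less tied to stage. Chil1, which encodes another catalytically inactive chitinase-like protein, had 5809 ND and 5417 HFD UMIs, 92.6% of them in neutrophil-like cells. It stood at 280 and 212 UPM in cluster 13, where Chil3 was highest, at 415 and 358 in cluster 8 and at 414 and 372 in cluster 4, and the intervals of clusters 8 and 4 overlapped in both libraries. Chil5, with 279 and 336 UMIs, had its highest value in cluster 4. The chitinase gene Chit1 had 103 and 74 UMIs and its highest value in cluster 13, as Chil3 did. Chid1 had 378 and 409, with 10.2% in neutrophil-like cells, and Ctbs had 567 and 579. Chil6 and Chia1 had 1 and 0 UMIs each.

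Among the 22 WAP domain genes listed, Wfdc21, Slpi and Wfdc17 held nearly all UMIs. Wfdc21 had 78492 and 83404 and was highest in cluster 8, in the specific granule stage. Slpi, an inhibitor of neutrophil serine proteases, had 56215 and 55488 and was highest in cluster 2, as Wfdc17 was among the neutrophil-like clusters. Wfdc18, with 93 and 62 UMIs, was highest in cluster 22, and its pattern over clusters had r = 0.77 with Wfdc17. Wfdc1 (262 and 418) was highest in pericyte-like cells and Wfdc2 (72 and 71) in mesenchymal-like cluster 3.

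Between diets, a gene was called lower where its HFD level was at least 1.5-fold below its ND level, a rule of size with no test. In neutrophil-like cells, where 8.48% of 10845 genes with at least 20 UMIs were called lower, neither gene was. The Chil3 log2 ratio of HFD over ND was -0.05 (-0.07 to -0.03), and its sign turned to 0.24 when each cell counted equally and to 0.27 when cells were thinned to 1000 UMIs. Inside the stages it was -0.18 (-0.21 to -0.16) in cluster 13, -0.11 (-0.15 to -0.08) in cluster 8 and -0.03 (-0.12 to 0.05) in cluster 4. It was -1.88 (-2.85 to -1.15) in cluster 15, past the limit but with 13 UMIs in 20 HFD cells, and 0.31 (-0.11 to 0.74) and 0.50 (-0.11 to 1.12) in clusters 0 and 2, where Chil3 was near the background. The Wfdc17 ratio was -0.24 (-0.31 to -0.16) over the class, -0.31 (-0.44 to -0.19) in cluster 0 and 0.15 (0.06 to 0.25) in cluster 2, and -0.0074 with clusters weighted alike in both libraries. It was 0.17 (-0.46 to 0.84) in cluster 8 and 0.23 (-0.52 to 1.05) in cluster 4. Past the 1.5-fold limit in either direction were cluster 13, at -0.66 (-1.49 to 0.12), and cluster 15, at 0.59 (-0.40 to 1.36). The intervals of clusters 13, 8, 4 and 15 all spanned 0.

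In monocyte-like cells, where 6.97% of 9859 genes were called lower, neither gene was. Chil3 had a log2 ratio of -0.13 (-0.20 to -0.05), which was 0.07 as a mean over cells. It was -0.23 (-0.31 to -0.16) in cluster 6 and -0.79 (-1.16 to -0.45) in cluster 22, which is past the limit. Wfdc17 had -0.55 (-0.62 to -0.49), close to the limit, but -0.28 in cluster 6 and -0.27 in cluster 22 taken apart. Some alternatives put Wfdc17 past the limit. It was -0.60 without the highest doublet scores, -0.61 at resolution 0.25 and at resolution 1.0, and -0.62 with a gate on marker UMIs. With neutrophil and immediate early genes left out of clustering it was -0.60. Cluster 22, the higher one for Wfdc17, held 112 of 363 ND and 35 of 326 HFD monocyte-like cells, and with clusters weighted alike the ratio was -0.28.

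In macrophage-like cells, where 8.03% of 7697 genes were called lower, both genes were. The Wfdc17 log2 ratio was -1.08 (-1.18 to -0.98), from 31.3 UMIs per cell in ND to 11.9 in HFD. It was -0.77 as a mean over cells, -0.94 without the 5% of cells highest in the gene in each library, and -0.61 in thinned cells. The neutrophil tracer was lower as a mean, at 185 UMIs per cell in ND and 16.9 in HFD, with all 7 of its genes called lower. Its median share of a cell's UMIs was not lower, at 0.0722% in ND and 0.101% in HFD. Cells of over 1% tracer UMIs were 4.44% of ND and 1.10% of HFD macrophage-like cells, so the mean rests on few cells. Without cells of over 1% tracer UMIs Wfdc17 was at 32.0 and 11.6 UMIs per cell, a log2 ratio of -1.20. The C1q genes stood at 213 and 173 UMIs per cell. Of 8 cycling genes, 7 were called higher in HFD macrophage-like cells, at least 1.5-fold above ND, as were 9.77% of the 7697 genes. Chil3 had -2.11 (-3.14 to -1.29), from 71 and 13 UMIs. Without cells of over 1% tracer UMIs it was at 0.442 and 0.144 UMIs per cell. Without the 3 ND cells of 10 or more Chil3 UMIs, 15 ND and 13 HFD UMIs were left. The log2 ratio was then 0.00 (-1.20 to 1.17), and Chil3 was no longer called. Those 3 cells carried neutrophil RNA as a sum, but not each need have done so. ND cells of at most 1% tracer UMIs held 38 Chil3 UMIs, more than the 15 left, so not all 3 cells were over 1% tracer.

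In progenitor-like cells, where 6.1% of 10760 genes were called lower, Wfdc17 was and Chil3 was not. Wfdc17 had 142 ND and 23 HFD UMIs, a log2 ratio of -2.13 (-2.86 to -1.51), with 2 ND cells holding at least 50% of the ND UMIs. Chil3 had -0.46 (-0.52 to -0.39), which moved to 0.0053 when cells were classed by a gate on marker UMIs in place of clusters. Without the 5% of cells highest in Chil3 in each library it was -0.90, at 329 and 176 UPM, which would be called lower.

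Genes that dissociation of tissue is known to raise differed between the libraries in most of these classes. The list held 16 immediate early genes such as Fos and the heat shock genes Hspa1a, Hspa1b, Hsp90aa1 and Dnajb1. Of these 20 genes, 16 were called lower in HFD neutrophil-like cells (median log2 ratio -0.90, against -0.06 over all genes measured) and 16 in monocyte-like cells (-1.41 against 0.05). In progenitor-like cells 15 of 19 measured were called lower (-1.10 against 0.00), with all the heat shock genes among those called in each of these classes. In macrophage-like cells 1 of 20 was called lower and 1, the heat shock gene Hspa1a, at least 1.5-fold higher (median 0.15 against 0.03). Their part in the differences above was not tested, and with 1 library per diet the diet and the library cannot be told apart.

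**Figure D4:**
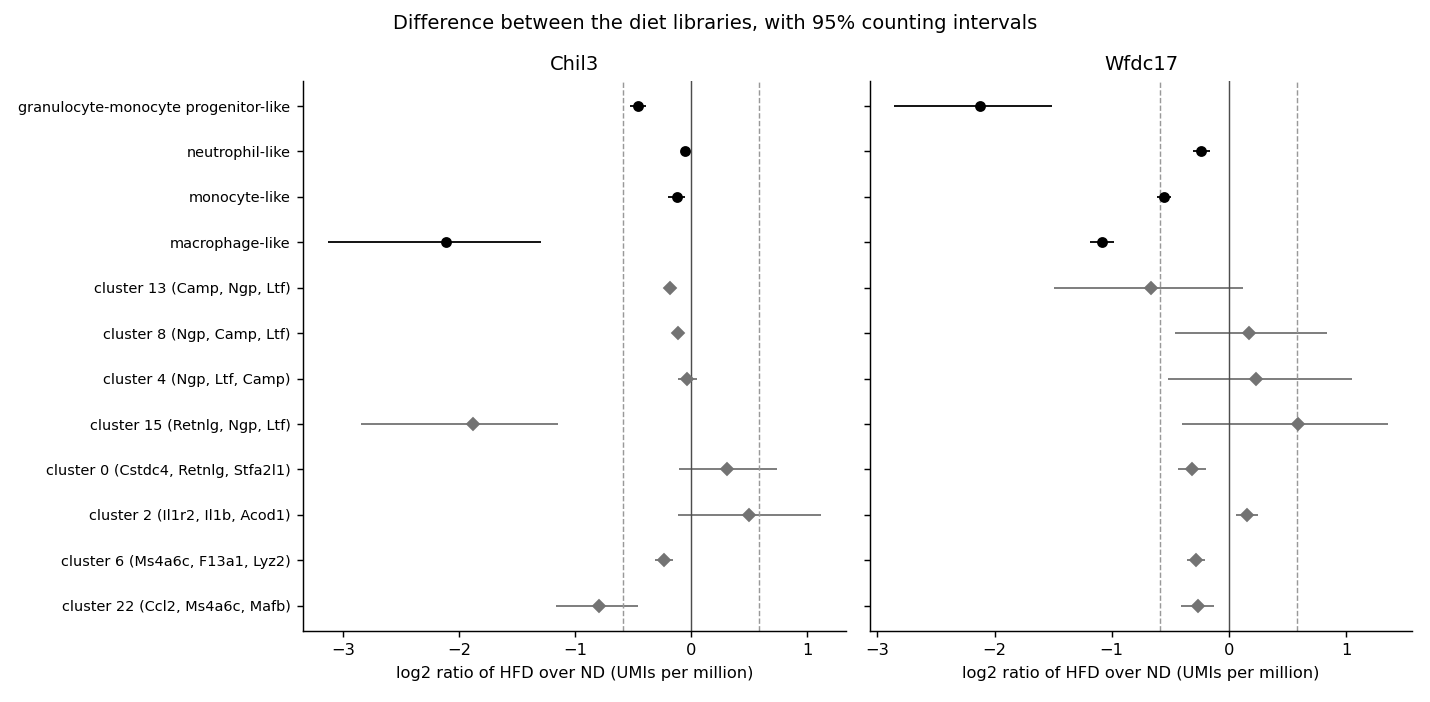
Log2 ratio of HFD over ND for Chil3 (left) and Wfdc17 (right), for 4 classes (circles) and for the neutrophil-like and monocyte-like clusters (diamonds), with 95% counting intervals. Dashed lines mark 1.5-fold. Both genes lie left of the lower line in macrophage-like cells, at -2.11 and -1.08, where the Chil3 value rests on 3 ND cells. Chil3 also lies there in clusters 15 and 22, at -1.88 and -0.79, and Wfdc17 in progenitor-like cells and cluster 13, at -2.13 and -0.66, the last with an interval that spans 0. Wfdc17 lies right of the upper line in cluster 15, at 0.59, with an interval that also spans 0.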

How the data were processed

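Single-cell RNA of periosteum was measured with the 10x Genomics 3′ assay in 2 pooled libraries. The authors deposited raw UMI counts per gene and barcode, made with Cell Ranger 6.0.1 per the file headers and aligned to mm10 per the submitters' notes, with no normalization. From these counts, cells were filtered by the limits that the study states, normalized with sctransform 0.4.2 and clustered in Seurat 5.3.0 (30 components, resolution 0.5) without Chil3, Wfdc17 and Chil4. The study reports fewer ND cells than were kept here and no B cell cluster, so the sets of cells are not the same. Clusters were named where at least 3 markers reached 2-fold of the median cluster, a limit set after clusters were seen. Scrublet's own threshold marked 0.149% of ND and 0.370% of HFD cells, too few to have worked, so doublets were kept and the 5% of cells with the highest scores were left out as an alternative. Levels are summed UMIs per 1000000, and log2 ratios have 0.5 added to each sum. Genes named are both members, the 8 most like each, their families, and marker or list genes. The members and lists were chosen with earlier results of these data known. Alternatives changed doublets, mitochondrial limit, depth, resolution, classes, weights, free RNA and pseudocount. Intervals cover counting error only. The ratio and likeness scripts were tested on simulated data.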

Additional observations from a re-analysis of the deposited data

Results flagged for a closer look

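The diet difference of Wfdc17 had opposite signs in the late neutrophil-like clusters. Its log2 ratio of HFD over ND was 0.15 in cluster 2, led by Il1r2 and Il1b, and -0.31 in cluster 0, led by Cstdc4 and Retnlg. The difference between these clusters was not tested, since each diet is 1 library.

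Both RNAs were also present in the barcodes that the cell filter removed. Chil3 stood at 192 UPM in the 285 removed ND barcodes and 641 UPM in the 412 removed HFD barcodes, and Wfdc17 at 37.6 and 30.2 UPM. Among barcodes with 500 or fewer genes, 10.1% of ND and 22.7% of HFD barcodes had a Chil3 UMI, at a median depth of 714 and 701.5 UMIs. Empty droplets were not analysed here.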

How the results depend on the processing

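With 1 library per diet there is no spread between mice, and cells of a library are not replicates. The labels pair no ND sample with an HFD sample, and the matrices do not assign cells to mice. A ratio is said to move where it leaves the counting interval of its main value. With each cell counted equally, the log2 ratio (HFD over ND) came to 0.24 for Chil3 in neutrophil-like and 0.072 in monocyte-like cells, and -0.15, -0.48 and -0.77 for Wfdc17 in neutrophil-like, monocyte-like and macrophage-like cells. In cells thinned to 1000 UMIs it was 0.27 for Chil3 in neutrophil-like and -0.61 for Wfdc17 in macrophage-like cells. With clusters weighted alike it was -0.16 and -0.28 for Chil3 in neutrophil-like and monocyte-like cells and -0.0074 and -0.28 for Wfdc17. A gate on marker UMIs gave -0.084 and -0.31 for Chil3 in these classes and -0.62 for Wfdc17 in monocyte-like cells. Resolution 0.25 gave -0.21 for Chil3 in monocyte-like cells. Leaving neutrophil and immediate early genes out of clustering gave -0.22 for Chil3 in monocyte-like and -0.96 for Wfdc17 in macrophage-like cells. Subtracting the B cell-like level gave -0.11 for Wfdc17 in neutrophil-like cells, but that level differs between B cell-like clusters and is not free RNA alone, and leaving out high doublet scores gave -1.25 for it in macrophage-like cells. The next 3 alternatives, and leaving out macrophage-like cells of 10 or more Chil3 UMIs (given with the result), were chosen after seeing the data. Without the 5% of cells highest in the gene, Chil3 was at 0.35 and 0.0030 in neutrophil-like and monocyte-like cells and Wfdc17 at -0.32, -0.41 and -0.94 in the 3 classes. Without the clusters of over 70% ND cells, Chil3 was at -0.17 and -0.23 and Wfdc17 at -0.31 and -0.28 in neutrophil-like and monocyte-like cells. Without cells of over 1% tracer UMIs, Wfdc17 was at -1.20 in macrophage-like cells. The cause of these shifts was not tested. Wfdc17 kept a negative ratio in all 14 alternatives in neutrophil-like, 15 in monocyte-like and 14 in macrophage-like cells, Chil3 in 11 of 14 in neutrophil-like and 13 of 15 in monocyte-like cells. Not all of these alternatives could change a sign. Resolution 1.0 gave the main levels again in neutrophil-like and macrophage-like cells. Macrophage-like cells are cluster 19 alone, so equal cluster weights did the same there.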
